A study of Mus musculus with 2 samples.

Results

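The phagocyte NADPH oxidase is described here through 5 of its genes, Cybb, Cyba, Ncf1, Ncf4 and Rac2, taken by symbol from the 55450 gene identifiers of the deposited tables, 1 identifier each. The oxidase is a membrane enzyme that passes electrons from cytosolic NADPH to oxygen and so makes superoxide outside the cell or inside a phagosome. Cybb encodes its catalytic chain NOX2 and Cyba the partner chain p22phox that stabilises it in the membrane. At rest the soluble subunits stay in the cytosol: Ncf1 encodes the organiser p47phox, Ncf4 the phosphoinositide-binding p40phox, and Rac2 a small GTPase found mainly in blood cells. Stimulation brings them to the membrane chains, and inherited loss of CYBB and several other subunits causes chronic granulomatous disease. In the brain, microglia are regarded as the main cells with NOX2, and neutrophils and monocytes are its classical sites elsewhere.

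Single-cell 3′ RNA profiles came from brains of C57BL/6 mice at day 3 of microglial repopulation, after sorting for high CD11b with low CD45. There was 1 library of Hk2 fl/fl mice, which carry floxed hexokinase 2 and no Cre, and 1 of Hk2 cKO mice, Cx3cr1CreER::Hk2 fl/fl. In the cKO a tamoxifen-inducible Cre runs from the Cx3cr1 locus, which microglia and also some monocytes use. The protocol gives 100 µg tamoxifen by intraperitoneal injection on 2 consecutive days soon after birth, or otherwise where stated. Whether the fl/fl mice received it, the age at sorting, the depletion method, the floxed exons and the animals pooled per library are not given in the sources used here. With 1 library per genotype nothing was tested, and all intervals are 95% exact intervals for counting error alone.

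The fl/fl library held 3089 barcodes and 37476201 unique molecular identifiers (UMIs, each a counted transcript molecule), and the cKO library 2607 barcodes and 32896996 UMIs. Of these barcodes 2824 and 2299 were kept as cells, and the libraries shared 2 barcode sequences. Cells were clustered without the 5 genes and without 38 further oxidase pathway genes, so the classes compared do not rest on them. Microglia-like cells numbered 2504 in fl/fl and 2030 in cKO. All 16 microglial markers, which also served to name these clusters, were detected in both. They were also detected in the other classes listed next, except cKO monocyte-like cells, so detection alone does not set microglia-like cells apart. There were 79 and 91 neutrophil-like cells (leading genes S100a8, S100a9), 79 and 34 monocyte-like cells (Plac8, F13a1, Ly6c2), 50 and 32 MHC class II-high cells (H2-Eb1, H2-Aa, Cd74), 50 and 84 endothelial-like cells (Cldn5) and 17 and 21 osteoclast-like cells (Ctsk, Acp5). The targeted gene Hk2 measured 166 CPM (162 to 170.5) in fl/fl against 43.7 CPM (41.3 to 46.2) in cKO microglia-like cells, where CPM is the gene's UMIs per 1000000 UMIs of the summed class.

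Small classes also held UMIs of microglial marker genes, and this touches most comparisons below. The summed level of P2ry12, Tmem119, Siglech and Fcrls, 4 transcripts typical of microglia, was 2692 and 2748 CPM in fl/fl and cKO microglia-like cells, 1162 and 1287 CPM in neutrophil-like cells, 1542 and 941 CPM in MHC class II-high cells and 1814 and 1640 CPM in endothelial-like cells. In monocyte-like cells it was 1133 CPM in fl/fl against 65.8 CPM in cKO. Levels are therefore also given for cells of the neutrophil-like, monocyte-like and MHC class II-high classes with no UMI of these 4 genes, called marker-free cells below (31 and 58 neutrophil-like, 43 and 29 monocyte-like, 12 and 14 MHC class II-high). Whether these UMIs came from doublets, from free RNA or from the cells themselves was not tested. Marker-free cells were also shallower. In fl/fl and cKO their median depths were 5520 and 8316.5 UMIs in neutrophil-like cells, against 9077 and 9772 over the class. In monocyte-like cells they were 6605 and 6192 against 7500 and 7176.5 UMIs. In MHC class II-high cells they were 8472 and 10515 against 12802.5 and 13119 UMIs. The part of depth in the marker-free levels was not tested.

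RefSeq promoter windows on GRCm38.p6 were at hand for 3 of the 5 genes, from 250 bases before to 50 bases after the start site. They are printed because Cybb, Cyba and Ncf1 behaved differently across classes and clusters. Capitals mark matches on either strand to GAGGAA, the core recognised by the myeloid factor PU.1. The Cybb window lies at chrX:9469275-9469574, the Cyba window at chr8:122432891-122433190 and the Ncf1 window at chr5:134229576-134229875, all on the minus strand. The Cybb window, built on a RefSeq start site, lies inside the gene span given below, whose 5′ end is at 9487771. The Cyba and Ncf1 windows span the 5′ ends of their genes.
Cybb promoter: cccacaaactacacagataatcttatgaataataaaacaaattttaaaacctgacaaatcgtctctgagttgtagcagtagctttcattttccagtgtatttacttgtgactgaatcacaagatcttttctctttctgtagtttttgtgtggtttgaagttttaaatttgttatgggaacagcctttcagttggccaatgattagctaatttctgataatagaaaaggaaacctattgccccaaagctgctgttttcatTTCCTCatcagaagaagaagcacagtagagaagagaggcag
Cyba promoter: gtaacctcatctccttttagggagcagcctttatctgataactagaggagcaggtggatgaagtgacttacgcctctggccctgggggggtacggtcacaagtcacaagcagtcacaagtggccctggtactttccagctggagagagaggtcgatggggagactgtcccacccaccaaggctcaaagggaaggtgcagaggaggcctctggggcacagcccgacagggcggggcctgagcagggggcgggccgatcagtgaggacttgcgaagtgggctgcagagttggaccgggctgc
Ncf1 promoter: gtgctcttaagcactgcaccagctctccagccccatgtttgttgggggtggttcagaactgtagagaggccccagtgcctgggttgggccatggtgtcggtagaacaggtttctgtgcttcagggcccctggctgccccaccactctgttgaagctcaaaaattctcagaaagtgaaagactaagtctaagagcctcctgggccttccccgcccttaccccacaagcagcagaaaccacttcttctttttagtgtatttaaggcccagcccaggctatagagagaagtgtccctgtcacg
The Cybb window was AT-rich, with 35.3% G and C against 60.7% in Cyba, 54.0% in Ncf1 and a median of 52.7% over 32851 windows. It held 1 match to GAGGAA, on the opposite strand and starting 10 bases downstream of the start site. It also held 1 match to CCAAT, the box bound by NF-Y, starting 56 bases upstream and not in capitals. The Cyba and Ncf1 windows held neither word. A match to GAGGAA was present in 28.3% of all windows and a match to CCAAT in 37.4%, so neither word sets the Cybb window apart.

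Cybb was the gene that differed most between classes. It spans positions 9435252 to 9487771 of chromosome X on the minus strand of GRCm38 (ENSMUSG00000015340). In microglia-like cells it measured 186 CPM (181 to 190.3) in fl/fl against 205 CPM (199.6 to 210.1) in cKO. Neutrophil-like cells held 854 CPM (797 to 914) and 949.9 CPM (898 to 1004), and monocyte-like cells 957 CPM (889 to 1028) and 1521 CPM (1370 to 1685). MHC class II-high cells were intermediate, at 349 CPM (313 to 388) and 523 CPM (457 to 596). Against microglia-like cells of the same library, neutrophil-like cells were 4.60-fold (4.27 to 4.95) and 4.64-fold (4.36 to 4.93) higher, and monocyte-like cells 5.16-fold (4.77 to 5.56) and 7.43-fold (6.67 to 8.25) higher. MHC class II-high cells were 1.88-fold (1.68 to 2.10) and 2.55-fold (2.22 to 2.92) higher, below and above the 2-fold mark.

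The gap between the monocyte-like libraries was absent in cells without microglial marker UMIs. Over all monocyte-like cells Cybb was 1.59-fold (1.40 to 1.80) higher in cKO. In marker-free cells it was 1467 CPM (1322 to 1625) in fl/fl against 1506 CPM (1340 to 1687) in cKO, a ratio of 1.03. Marker-free neutrophil-like cells held 1453 CPM (1283 to 1640) and 1290 CPM (1191 to 1395). On these values the neutrophil-like and monocyte-like intervals overlapped in both libraries. Over all cells the level intervals overlapped in fl/fl but not in cKO. The all-cell ratio of neutrophil-like to monocyte-like cells was 0.893 (0.807 to 0.987) in fl/fl and 0.624 (0.556 to 0.703) in cKO. That ratio was not taken in marker-free cells, so whether the difference persists there was not tested. Marker-free MHC class II-high cells stayed well below both, at 420 CPM (298 to 574) and 366 CPM (273 to 479.7).

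Endothelial-like cells, which are not phagocytes, also held Cybb UMIs, and how much of this was RNA of other cells was not tested. They held 236 CPM (199.7 to 276) of Cybb in fl/fl and 117 CPM (96.9 to 139.9) in cKO, above and below the microglia-like level of the same library, and a Cybb UMI was seen in 18 of 50 and 18 of 84 of them at median depths of 6751.5 and 6002 UMIs. Their 7 and 19 marker-free cells held 0 Cybb UMIs, which allows up to 164 and 43.4 CPM. In microglia-like cells, at median depths of 10168 and 12018 UMIs, 54.4% and 56.6% of cells had a Cybb UMI. After thinning every cell to 3000 UMIs, the shares with a Cybb UMI were 31.5% and 33.1% in microglia-like, 81.2% and 81.2% in neutrophil-like, 90.3% and 93.1% in monocyte-like, 57.1% and 82.8% in MHC class II-high and 22.2% and 11.4% in endothelial-like cells. Thinning left out 69 and 70 microglia-like cells, 10 and 11 neutrophil-like, 7 and 5 monocyte-like, 1 and 3 MHC class II-high and 5 and 5 endothelial-like cells.

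**Figure D1:**
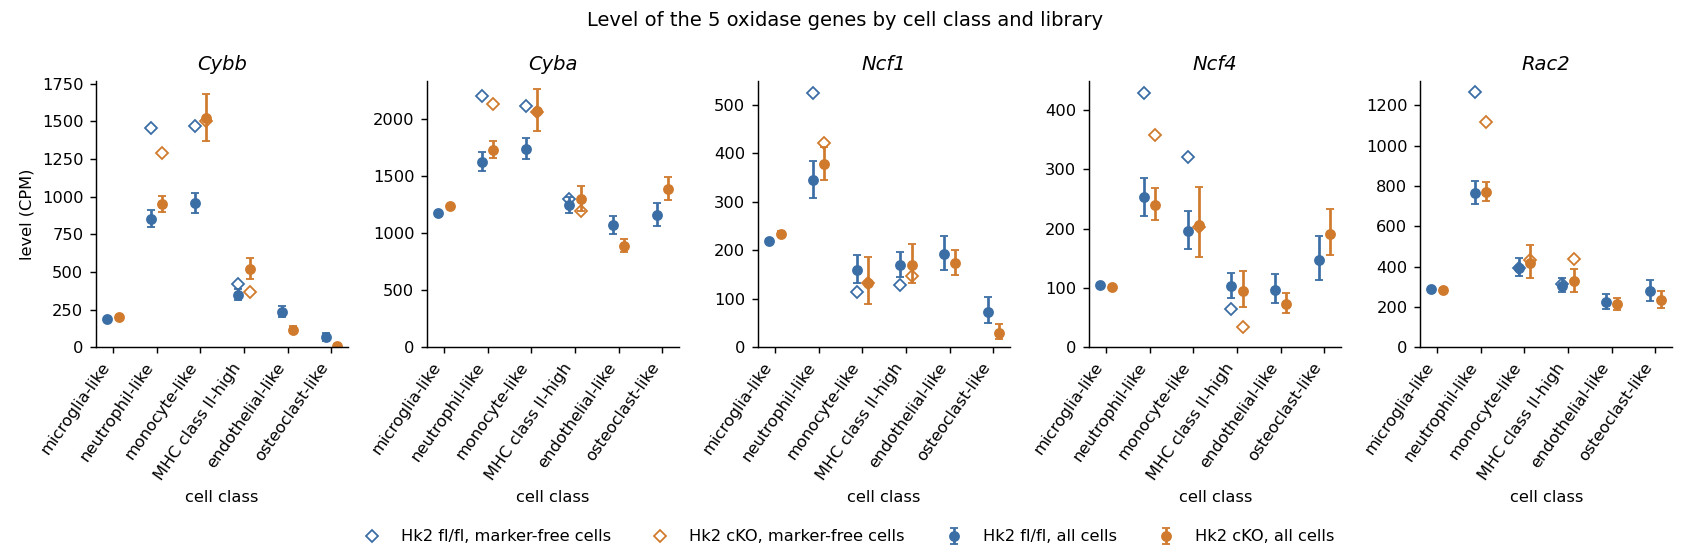
Level of each gene in CPM (vertical axes, from 0) by cell class, in Hk2 fl/fl (blue) and Hk2 cKO (orange). Filled points are all cells with 95% Poisson intervals, and open diamonds are cells of 3 classes without microglial marker UMIs. Cybb sits highest in neutrophil-like and monocyte-like cells, Ncf1 is highest in neutrophil-like cells only, and Cybb is near 0 in cKO osteoclast-like cells.

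Cyba was the most abundant of the 5 genes in every class and the most even. Counts from transcript 3′ ends do not grow with transcript length, so levels of different genes can be set side by side here, apart from differences in how well each 3′ end is captured. Cyba lies on chromosome 8, 122424776 to 122432930, minus strand (ENSMUSG00000006519), and the gene model Gm20388 overlaps it on the opposite strand. It measured 1178 CPM (1167 to 1190) and 1237 CPM (1224 to 1250) in microglia-like cells, 1626 and 1732 CPM in neutrophil-like, 1740 and 2072 CPM in monocyte-like and 1245 and 1301 CPM in MHC class II-high cells. Neutrophil-like cells were 1.38-fold and 1.40-fold, and monocyte-like cells 1.48-fold and 1.68-fold, above microglia-like cells. Marker-free cells held 2202 and 2133 CPM in the neutrophil-like, 2112 and 2059 CPM in the monocyte-like and 1302 and 1196 CPM in the MHC class II-high class. Endothelial-like cells also held 1070 and 888 CPM, and their marker-free cells 356 CPM (154 to 701) and 365 CPM (248 to 518). Of the 5 genes, Cyba was the only one with a lower bound above 100 CPM in marker-free endothelial-like cells of both libraries.

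Ncf1, which scaffolds assembly, separated neutrophil-like from monocyte-like cells. It lies on chromosome 5, 134220053 to 134229625, minus strand (ENSMUSG00000015950), where Gtf2ird2 overlaps it on the opposite strand. Its level was 219 CPM (214 to 224) and 234 CPM (229 to 239.9) in microglia-like cells and 344 CPM (308 to 383) and 377 CPM (345 to 412) in neutrophil-like cells. Monocyte-like cells held less than microglia-like cells, 159.7 CPM (133 to 190.4) and 132 CPM (90.0 to 186). MHC class II-high cells were likewise below, at 169 CPM (144 to 197) and 169.5 CPM (133 to 213). Relative to microglia-like cells the factors were 1.57 and 1.61 in neutrophil-like cells, 0.729 (0.606 to 0.871) and 0.562 (0.384 to 0.794) in monocyte-like cells, and 0.772 (0.658 to 0.900) and 0.724 (0.567 to 0.911) in MHC class II-high cells. In marker-free cells the contrast was wider, with 523 and 420 CPM in neutrophil-like against 115 and 132 CPM in monocyte-like cells. Marker-free MHC class II-high cells held 129 CPM (66.7 to 226) and 148 CPM (91.4 to 226), and the fl/fl interval includes the microglia-like level. Monocyte-like cells thus combined high Cybb with low Ncf1, and neutrophil-like cells were high in both.

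Ncf4 encodes the subunit that binds phosphatidylinositol 3-phosphate on phagosomes. It lies on chromosome 15, 78244801 to 78262580, plus strand (ENSMUSG00000071715), and was the least abundant of the 5 genes in microglia-like cells, at 105 CPM (101 to 108.4) and 101 CPM (97.5 to 105). Neutrophil-like cells held 253 CPM (222 to 286) and 240.3 CPM (215 to 268), which is 2.41-fold (2.11 to 2.75) and 2.38-fold (2.11 to 2.67) higher. Monocyte-like cells held 196 CPM (166 to 229) and 206 CPM (153 to 271), which is 1.87-fold (1.58 to 2.20) and 2.03-fold (1.504 to 2.69) higher. In marker-free cells Ncf4 was at 429 CPM (339 to 536) and 358 CPM (307 to 416) in the neutrophil-like class, and at 320 CPM (254 to 398) and 203 CPM (145 to 276) in the monocyte-like class. MHC class II-high cells, at 103 CPM (83.7 to 125) and 95.2 CPM (68.3 to 129), had intervals that include the microglia-like levels. Their marker-free cells held less, 64.6 CPM (23.7 to 141) and 35.2 CPM (11.4 to 82.1) from 6 and 5 UMIs, and the cKO interval lies below the microglia-like one.

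Rac2 lies on chromosome 15, 78559167 to 78572783, minus strand (ENSMUSG00000033220). It measured 291 CPM (285 to 296) and 286 CPM (279.6 to 292) in microglia-like cells and 767 CPM (713 to 824) and 773 CPM (726 to 822) in neutrophil-like cells, 2.64-fold (2.45 to 2.84) and 2.70-fold (2.53 to 2.89) higher. In marker-free neutrophil-like cells it reached 1266 CPM (1108 to 1441) and 1118 CPM (1026 to 1217). Monocyte-like cells held 395 CPM (352 to 442) and 419 CPM (342 to 509), and MHC class II-high cells 306 CPM (273 to 343) and 327 CPM (276 to 386). Marker-free cells of these classes held 396 and 431 CPM, and 312 CPM (209 to 448) and 436 CPM (334 to 559). Neutrophil-like cells exceeded monocyte-like cells 1.94-fold (1.70 to 2.22) in fl/fl and 1.84-fold (1.502 to 2.28) in cKO. Rac2 was thus the gene besides Ncf1 in which neutrophil-like cells stood above monocyte-like cells in both libraries with intervals clear of 1. For Ncf4 that ratio was 1.29 (1.05 to 1.59) in fl/fl and 1.17 (0.865 to 1.61) in cKO.

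Counted at 2-fold in the same direction in both libraries, 3 of the 5 genes were higher in neutrophil-like than in microglia-like cells (Cybb, Ncf4 and Rac2), 1 was higher in monocyte-like cells (Cybb), and none was higher in MHC class II-high cells. None was lower in any of the 3 classes. Over all measured genes (mean of at least 10 CPM and at least 20 UMIs), 5.90% of 7322 were higher and 8.66% lower in neutrophil-like cells. The shares were 6.60% higher and 6.88% lower of 7238 genes in monocyte-like cells, and 3.25% higher and 0.739% lower of 7439 genes in MHC class II-high cells. The median log2 ratio of the 5 genes was 1.27 and 1.248 in neutrophil-like cells, where the median of all genes was -0.49 and -0.59. It was 0.56 and 0.74 in monocyte-like cells, against -0.10 and -0.17 for all genes, and 0.08 and 0.07 in MHC class II-high cells, against -0.08 and -0.16.

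The share of each gene among the 5 genes' UMIs is free of their total level, and it need not move with a gene's own level. In microglia-like cells Cyba took 59.6% (59.2 to 59.9) and 59.96% of them and Cybb 9.38% (9.16 to 9.61) and 9.93%. In neutrophil-like cells Cyba took 42.3% and 42.5%, Cybb 22.2% and 23.3%, and Rac2 19.9% and 19.0%. The Ncf1 share was lower in neutrophil-like (8.96% and 9.26%) than in microglia-like cells (11.1% and 11.4%), although its level was higher. In monocyte-like cells Cybb took 27.8% (26.1 to 29.5) and 35.0% (32.1 to 37.9), Ncf1 only 4.63% and 3.02%, and Rac2 11.5% and 9.64%, the last below its 14.7% and 13.9% in microglia-like cells although its level was higher. In marker-free monocyte-like cells the Cybb share was 33.3% (30.5 to 36.1) in fl/fl and 34.8% (31.6 to 38.1) in cKO, and these intervals overlapped. The summed level of the 5 genes was 1978 and 2063 CPM in microglia-like, 3844 and 4072 CPM in neutrophil-like, 3448 and 4350 CPM in monocyte-like and 2172 and 2415 CPM in MHC class II-high cells.

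**Figure D2:**
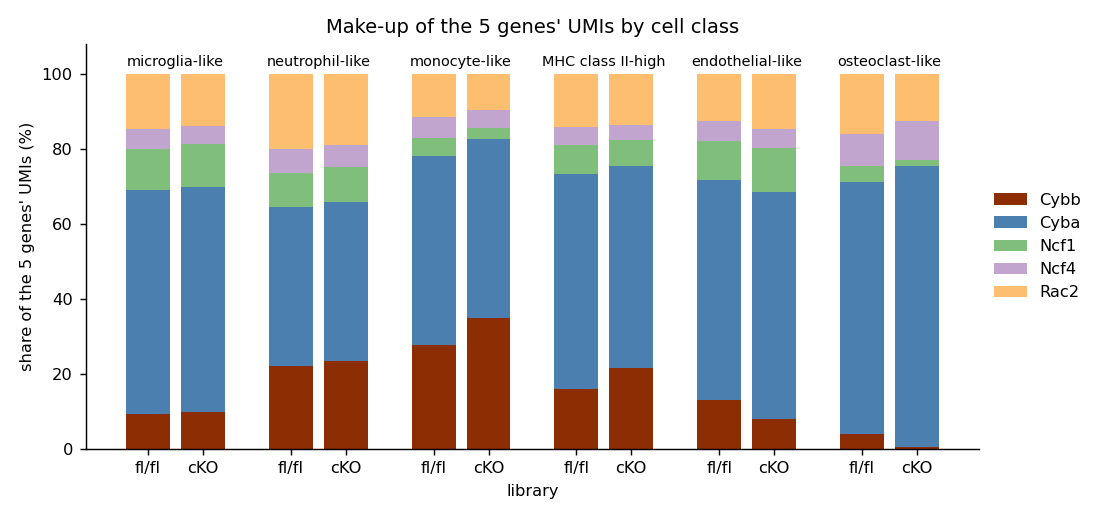
Share of each gene (vertical axis, percent) among the summed UMIs of the 5 genes, 1 bar per class and library. Cybb grows from 9.38% and 9.93% in microglia-like cells to 27.8% and 35.0% in monocyte-like cells, and shrinks to 3.86% and 0.406% in osteoclast-like cells.

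Osteoclast-like cells, which are phagocyte relatives of bone, lacked most Cybb and Ncf1 but not the other genes. They were deep cells, with median depths of 24076 and 21693 UMIs. Cybb gave 29 UMIs in fl/fl (66.6 CPM, 44.6 to 95.6) and 4 UMIs in cKO (7.51 CPM, 2.05 to 19.2), against 506 and 739 UMIs of Cyba in the same cells. Relative to microglia-like cells Cybb stood at a factor of 0.359 (0.240 to 0.516) and 0.0367 (0.00999 to 0.0940), and Ncf1 at 0.336 (0.229 to 0.474) and 0.128 (0.0733 to 0.208). Ncf4 was at 147 CPM (113 to 188) and 192 CPM (156 to 233), above microglia-like cells by 1.40-fold (1.08 to 1.80) and 1.89-fold (1.54 to 2.31). The 4 microglial markers came to 964 CPM in fl/fl against 391 CPM in cKO osteoclast-like cells. Whether the Cybb UMIs of these cells were their own or came from microglia was not tested. The 4 and 8 marker-free osteoclast-like cells held 0 and 1 Cybb UMIs, beside 36 and 249 UMIs of Cyba (475 and 1640.4 CPM). In them Ncf4 was at 66.0 CPM (21.4 to 154) in fl/fl, from 5 UMIs, below the microglia-like level but with an interval that includes it, and at 178 CPM (117 to 259) in cKO.

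The cells differed in how many of the 5 genes were seen together. After thinning to 3000 UMIs, 4 or 5 of the genes had a UMI in 15.9% (14.5 to 17.4) and 16.8% (15.2 to 18.5) of microglia-like cells. The shares were 68.1% (55.8 to 78.8) and 78.8% (68.2 to 87.1) of neutrophil-like cells and 52.8% (40.7 to 64.7) and 51.7% (32.5 to 70.5) of monocyte-like cells. In MHC class II-high cells they were 16.3% (7.32 to 29.7) and 27.6% (12.7 to 47.2), with intervals that include the microglia-like values, and in endothelial-like cells 8.89% and 3.797%. Without thinning, 33.0% and 36.5% of microglia-like cells and 70.9% and 73.6% of neutrophil-like cells had UMIs of all 5 genes. These shares follow transcript levels and say nothing of assembled enzyme.

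Between the genotypes the 5 genes hardly differed in microglia-like cells. Hexokinase 2 feeds glucose into glycolysis and the pentose phosphate pathway, a main source of the NADPH that the oxidase consumes, and the genotype comparison sets its loss in microglia beside the level of each transcript. Cybb was 1.10-fold (1.06 to 1.14) higher in cKO, Cyba 1.05-fold (1.03 to 1.06) and Ncf1 1.07-fold (1.03 to 1.11). Ncf4 had a ratio of 0.965 (0.919 to 1.01) and Rac2 of 0.983 (0.955 to 1.01). None of the 5 was at least 25% higher or 20% lower in cKO, sizes that 3.47% of 7816 measured genes reached upward and 2.93% downward. On the log2 scale the members' median was 0.07 and that of all genes -0.04. Intervals for Cybb, Cyba and Ncf1 excluded equality through counting error alone, and the spread between animals is not known.

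The small Cybb difference was not spread evenly over microglial states. It was largest in the cluster led by Top2a, Cenpe and Mki67, genes of dividing cells, with 209 CPM in fl/fl against 269 CPM in cKO, a log2 ratio of 0.36 (0.24 to 0.48). In the cluster led by Rcan1, Ccl7 and Cxcl2 it was 0.17 (0.07 to 0.27). The cluster led by Cdk1 and Pbk, also genes of dividing cells, did not share the rise, at -0.06 (-0.37 to 0.24). In the cluster led by Apoe and Lgals1 the ratio pointed down, at -0.13 (-0.31 to 0.06). Cybb was higher in cKO in 5 of the 7 microglia-like clusters, Cyba in 5, Ncf1 in 6, and Ncf4 and Rac2 in 2 each. With the 7 clusters weighted equally the log2 ratio of Cybb was 0.11, of Cyba 0.08, of Ncf1 0.08, of Ncf4 -0.12 and of Rac2 -0.03. For Cyba the difference was largest in the cluster led by Apoe, with 1355 CPM in fl/fl against 1590 CPM in cKO, and in the cluster led by Cdk1, with 1207 against 1371 CPM.

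In the other classes the genotype ratios of Cybb excluded 0 on the log2 scale over all cells, but their intervals included 0 in marker-free cells. In MHC class II-high cells the log2 ratio of Cybb, cKO over fl/fl, was 0.58 (0.33 to 0.83) over all cells and -0.20 (-0.83 to 0.44) in marker-free cells. The latter rested on 39 UMIs in fl/fl and 52 in cKO, and its interval overlaps that of all cells. In neutrophil-like cells the log2 ratio of Cybb was 0.15 (0.03 to 0.28) over all cells and -0.17 (-0.38 to 0.04) in marker-free cells. Cyba was higher in cKO in monocyte-like cells, by 0.25 (0.10 to 0.40) on the log2 scale over all cells, and stood at -0.04 (-0.23 to 0.15) in marker-free cells. The intervals of Ncf1, Ncf4 and Rac2 included 0 in all cells of the 3 classes. Among marker-free cells 1 of 15 intervals excluded 0, that of Ncf4 in monocyte-like cells, at 320 CPM (254 to 398) in fl/fl against 203 CPM (145 to 276) in cKO, from 81 and 40 UMIs.

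**Figure D3:**
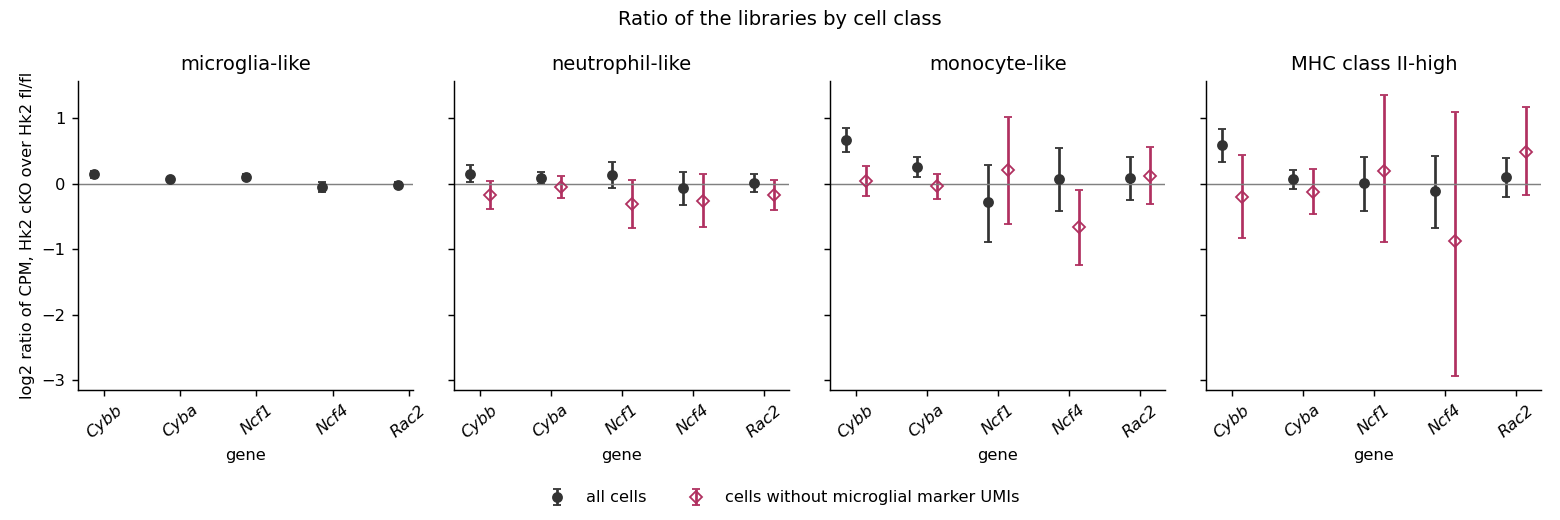
Log2 ratio of CPM, Hk2 cKO over Hk2 fl/fl, for the 5 genes in 4 classes, with 95% exact counting intervals; filled points are all cells and open diamonds cells without microglial marker UMIs. Microglia-like values lie between -0.05 and 0.14. The Cybb values of 0.67 in monocyte-like and 0.58 in MHC class II-high cells stand beside 0.04 and -0.20 in marker-free cells, with intervals that include 0.

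Within microglia, Cybb varied most by cluster among the 5 genes. It was low in the cluster led by Otud1, Klf2 and Klf6, at 126 CPM in fl/fl against 130.1 CPM in cKO. The cluster led by Rcan1, Ccl7, Cxcl2 and Il1b held 235 and 265 CPM, the cluster led by Top2a 209 and 269 CPM, and the cluster led by Fdps and Srm 212 and 229 CPM. The highest over the lowest cluster was 2.04 in fl/fl and 2.11 in cKO. The same quotient was 1.31 and 1.54 for Cyba, 1.28 and 1.38 for Ncf1, 1.67 and 1.37 for Ncf4 and 1.49 and 1.73 for Rac2. The 3 clusters high in Cybb had the deepest cells, with median depths of 14424.5 (Rcan1), 15399 (Fdps) and 17208 UMIs (Top2a), against 8813 UMIs in the cluster led by Otud1, and the part of depth in this order was not tested.

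Rac2 and Ncf1 ran against each other across these clusters, and Rac2 and Ncf4 together. Rac2 was highest in the cluster led by Cdk1, at 382 and 389 CPM, and lowest in the cluster led by Otud1, at 257 and 224 CPM. Over the 14 profiles of 7 clusters in 2 libraries, which share library and depth by construction, Pearson's r of log2 levels was 0.75 for Ncf4 with Rac2 and -0.84 for Ncf1 with Rac2. For Cybb it was 0.16 with Ncf1, 0.30 with Ncf4 and 0.06 with Rac2.

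**Figure D4:**
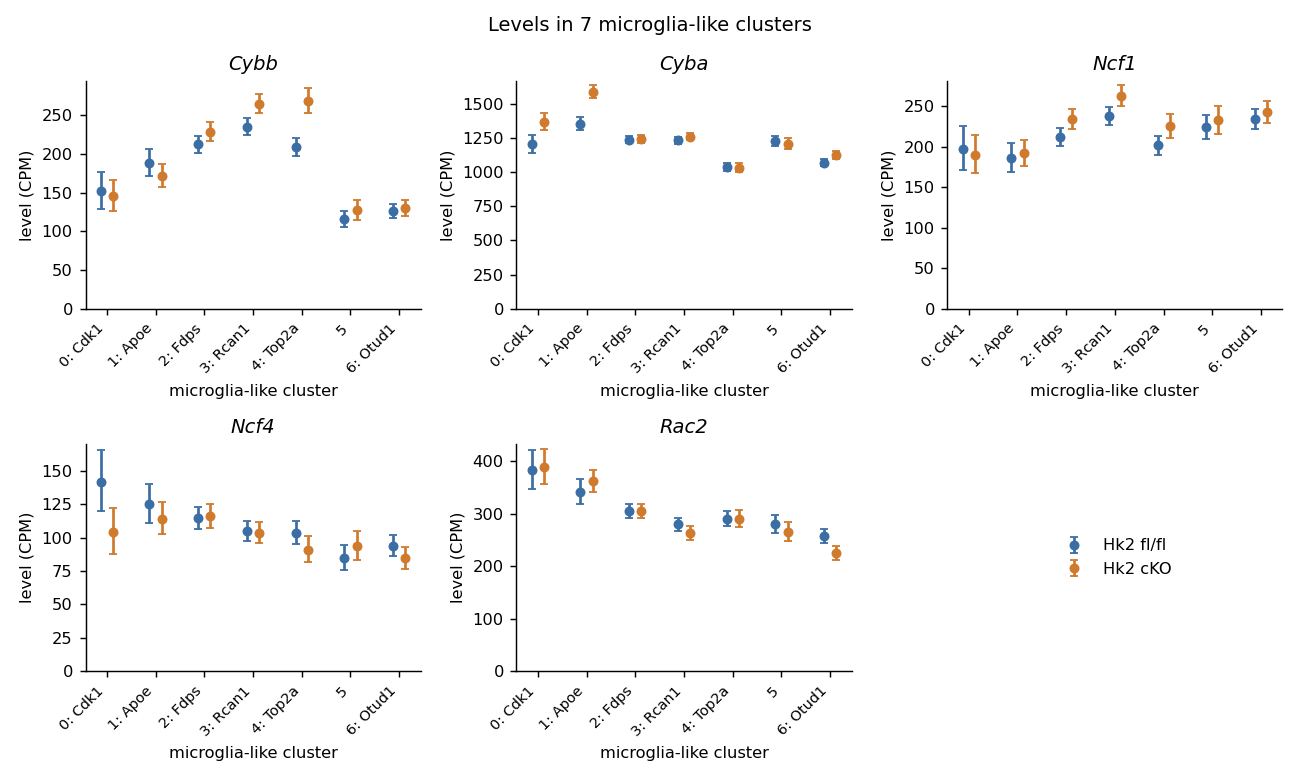
Level in CPM (vertical axes, from 0) of the 5 genes in 7 microglia-like clusters, labelled by number and, for most, a leading gene, with 95% Poisson intervals, in Hk2 fl/fl (blue) and Hk2 cKO (orange). Cybb spans 115 to 269 CPM, and Rac2 is highest in the cluster led by Cdk1, at 382 and 389 CPM.

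Cybb was also unevenly spread over single microglia-like cells. In cells thinned to 3000 UMIs its mean was 0.502 and 0.545 UMIs per cell, and its Fano factor, the variance over the mean, was 1.69 in fl/fl and 1.73 in cKO. A Fano factor near 1 is what random sampling of an even level gives. Ncf1, at a similar mean of 0.626 and 0.669, had 1.08 and 1.17, and Ncf4 had 1.03 and 1.08. Of 440 genes with a mean from 20% below to 25% above that of Cybb in fl/fl only 11 had a higher Fano factor, and in cKO 13 of 390. The top 10% of cells held 54.2% and 51.9% of Cybb UMIs, against 37.7% and 38.3% of Ncf1 UMIs. Within single clusters the Cybb Fano factor ran from 1.17 to 2.10 in fl/fl and from 0.876 to 1.95 in cKO.

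Cells at the upper end carried other genes as well. Thinned microglia-like cells with at least 3 Cybb UMIs, 106 (4.35%) in fl/fl and 101 (5.15%) in cKO, were set beside the 1668 and 1311 cells with none. This is a range of 1 measured gene and not a cell type, with 175 and 156 cells at 2 UMIs just below it, and it was chosen after the values were seen. Of 2944 genes with at least 50 CPM in either set of cells in both libraries, 8 were at least 2-fold higher in both libraries (0.272%) and 1 was lower (0.0340%). The higher genes were Apoe, Il12b, Ms4a6c, Gpr65, Ptger4, Ccr1, Ch25h and Malt1, and the lower gene was Sox4. A gene could enter this count through only the set in which it was high, so the list partly follows the filter. In cells without Cybb, Il12b, Ccr1 (42.2 and 20.5 CPM) and Malt1 (32.5 and 27.9 CPM) were under 50 CPM in both libraries. Ch25h was so in fl/fl (42.1 CPM) and Ptger4 in cKO (39.9 CPM). Sox4 entered only through the cells without Cybb, being at 28.0 and 27.1 CPM in the others. Apoe, a lipid carrier, was at 893 CPM (843 to 945) against 380 CPM in fl/fl and 2342 CPM (2270 to 2416) against 561 CPM in cKO. Il12b, the p40 chain of IL-12, was at 107 CPM against 10.1 CPM in fl/fl and 149.99 CPM against 7.76 CPM in cKO. Both rested on few cells. The 5 cells with most Il12b held 136 of 145 Il12b UMIs in fl/fl and 245 of 255 in cKO, and the 5 with most Apoe held 693 of 1210 and 2115 of 3982 Apoe UMIs. Ms4a6c and Gpr65, a membrane protein of the MS4A family and a proton-sensing receptor, were instead seen in 86 and 83 of the 106 fl/fl cells and in 85 and 76 of the 101 cKO cells. Ms4a6c was at 269 against 102.2 CPM and 275 against 129.5 CPM, and Gpr65 at 173 against 84.6 CPM and 177 against 80.1 CPM.

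The partner subunits differed little between these cells, by at most 1.26-fold, the value of Ncf4 in cKO. Cyba was at 1331 against 1159 CPM in fl/fl and 1306 against 1210 CPM in cKO, and Rac2 at 286 against 287 CPM and 283 against 276 CPM. Ncf1 was at 200.01 against 222 CPM and 263 against 231 CPM, and Ncf4 at 117 against 101.6 CPM and 122 against 96.8 CPM. The 10 monocyte markers summed to 93.0 CPM in cells with at least 3 Cybb UMIs and 72.9 CPM in cells with none in fl/fl, and 169.99 and 128 CPM in cKO, with a median of 0 thinned UMIs per cell in each group. The 9 border macrophage markers summed to 173 against 104 CPM and 113 against 94.97 CPM, and the 13 neutrophil markers to 167 against 175 CPM and 152 against 166 CPM. The 16 microglial markers summed to 28923 against 33627 CPM and 31467 against 36438 CPM. After cells with any monocyte marker UMI were left out (52 and 35 cells with at least 3 Cybb UMIs stayed), Apoe, Ms4a6c, Gpr65 and Ptger4 were still counted as higher in both libraries. Ccr1 was past 2-fold too, by 3.33-fold and 2.80-fold, but at 37.6 CPM in cKO fell under the 50 CPM needed to be counted. Il12b was past 2-fold in neither, at 8.14 against 5.96 CPM in fl/fl and 0 against 10.2 CPM in cKO. With the limit at 2 Cybb UMIs, Apoe and Il12b passed, and with the cells without Cybb reweighted to the clusters of the others, all but Ch25h and Malt1. Sox4 was lost as the lower gene without monocyte marker UMIs, at a factor of 0.550 in fl/fl, and at 2 Cybb UMIs. The part of depth was not tested, with median depths of 10713 against 9894.5 UMIs in fl/fl and 15456 against 11652 UMIs in cKO.

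**Figure D5:**
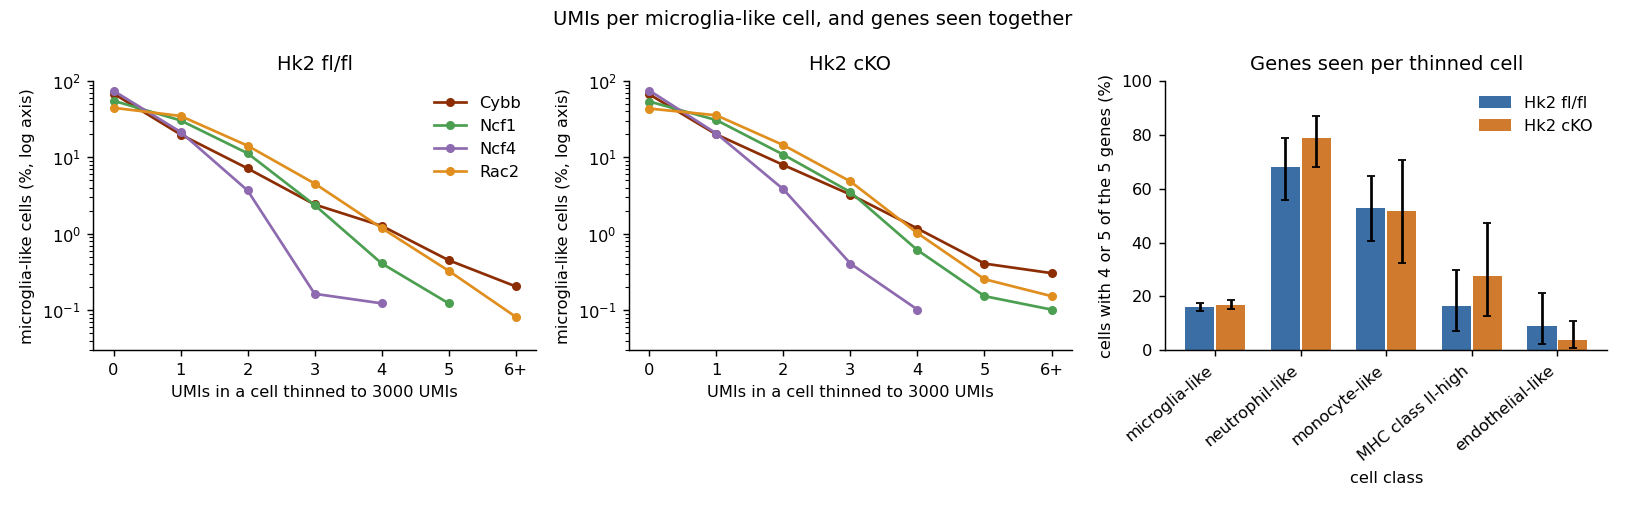
Left and middle: share of thinned microglia-like cells (percent, log axis) by number of UMIs of Cybb, Ncf1, Ncf4 and Rac2 in each library, where Cybb has more cells than Ncf1 both at 0 and at 4 or more UMIs. Right: share of thinned cells with UMIs of 4 or 5 of the 5 genes by class with 95% Clopper-Pearson intervals, highest in neutrophil-like cells at 68.1% and 78.8%.

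The remaining genes of the pathway were read from a list of 38. Rac1, the widely expressed Rac, measured 442 and 399.7 CPM in fl/fl and cKO microglia-like cells, a ratio of 0.903 (0.881 to 0.926), and Cybc1, the chaperone of the membrane chains, at 51.4 and 49.2 CPM. Rac1 thus lay below 1 where Cybb, Cyba and Ncf1 lay above it. In neutrophil-like cells Rac1 was at 295 and 286 CPM, below microglia-like cells, while Rac2 was above. The median log2 ratio of all genes in this comparison was also below 0, at -0.49 and -0.59. The lower Rac1 level is therefore not particular to Rac1.

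None of the 9 genes of other NADPH oxidases and their partners reached the measured level in any of the 4 classes. Noxo1 gave 40 and 50 UMIs in microglia-like cells (1.21 and 1.74 CPM), Nox1 10 and 7 UMIs, and Nox3, Nox4, Noxa1, Duox1 and Duox2 none. Of 10 genes for Rac exchange and binding proteins, 8 were measured in microglia-like cells and Vav2, an exchange factor, reached the size for a genotype call, at 33.4 CPM in fl/fl against 22.8 CPM in cKO (ratio 0.684, 0.620 to 0.754). Arhgdib was at 781 and 673 CPM, Arhgdia at 449.8 and 432 CPM and Rap1a at 295 and 298 CPM. Arhgdib passed 2-fold in neutrophil-like cells, at 1641 and 1520 CPM. Tiam1, another exchange factor, passed 2-fold in all 3 classes, from 6.82 and 10.3 CPM in microglia-like cells to 45.1 and 74.0 CPM in monocyte-like cells. Between genotypes its microglia-like ratio was 1.51 (1.26 to 1.80), at a mean level under the 10 CPM needed to be counted.

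All 7 kinases upstream of assembly were measured, and none was 25% higher or 20% lower in cKO microglia-like cells. Prkcd, a protein kinase C that phosphorylates p47phox, was at 174 CPM in both libraries of microglia-like cells, Pak2 at 154 CPM in both and Pik3cg at 75.8 and 71.3 CPM. Syk, the kinase of immunoreceptor signalling, passed 2-fold in monocyte-like cells, at 139 and 230.3 CPM against 57.2 and 50.5 CPM. The voltage-gated proton channel Hvcn1, which offsets the charge moved by the oxidase, was at 59.2 and 64.9 CPM in microglia-like cells, a ratio of 1.10 (1.03 to 1.17). Of the NADPH suppliers, G6pdx was at 29.0 and 27.1 CPM in microglia-like and 89.4 and 89.0 CPM in neutrophil-like cells and passed 2-fold there and in monocyte-like cells, at 65.7 and 98.7 CPM. Pgd was at 148 and 140.3 CPM and Nrros, which limits NOX2 protein, at 111 and 112 CPM in microglia-like cells. Downstream of superoxide, Sod2 was at 101 and 94.2 CPM, Sod1 at 96.4 and 86.1 CPM and Cat at 41.0 and 36.8 CPM, with none past the limit in any comparison.

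In all, 25 of the 38 pathway genes were measured in microglia-like cells, of which 0 were at least 25% higher and 1 (Vav2) at least 20% lower in cKO. In each class comparison 26 were measured. Past 2-fold in both libraries, 3 were higher in neutrophil-like (Tiam1, Arhgdib, G6pdx), 3 in monocyte-like (Tiam1, Syk, G6pdx) and 1 in MHC class II-high cells (Tiam1), and none was lower. Over all measured genes 5.90%, 6.60% and 3.25% were higher in these classes, and 8.66%, 6.88% and 0.739% lower. Between genotypes the shares were 3.47% higher and 2.93% lower. The single genes, Tiam1 in MHC class II-high cells and Vav2 between genotypes, are about what these shares give in such a list.

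Genes with the most similar profiles were sought over 22 profiles (11 clusters with at least 20 cells in each of the 2 libraries) among 2923 genes, by Pearson's r of log2 levels with 10 CPM added. The profiles share libraries and depth, so r is a description. Cybb was closest to Degs1 (0.94), Mcemp1 (0.93) and Ly6c2 (0.93), Cyba to Alox5ap (0.92), Gmfg (0.88) and Arpc5 (0.88), and Ncf1 to Vasp (0.86), St3gal5 (0.85) and Hcar2 (0.83). Ncf4 was closest to Gmfg (0.93), Prdx5 (0.93) and Gsr (0.92), and Rac2 to Hcst (0.91), Ncf4 (0.90) and Gpi1 (0.89). Among the 5 genes themselves the values were 0.82 for Cybb with Ncf4, 0.83 for Cyba with Ncf4, 0.77 for Cyba with Cybb, and -0.01 for Cybb with Ncf1 and -0.02 for Cyba with Ncf1.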

How the data were processed

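Per the submitters' processing notes, reads were handled with bcl2fastq and Cell Ranger 3.1.0 on GRCm38; the annotation used is not given, and all 55450 identifiers matched GENCODE M21. The values are UMI counts per gene and barcode as deposited by the authors, not normalized. The cell filter asked for 500 or more genes per barcode and a mitochondrial share up to 10%. Scrublet marked 2 barcodes per library, so hardly any cells were removed as doublets. Doublets may remain, and their number was not tested. Cells of both libraries were clustered together with scanpy 1.11.5 (2000 variable genes, 30 principal components, 15 neighbours, Leiden resolution 0.8, seed 1) after the 5 genes and the 38 pathway genes, 43 in all, were held out. A cluster was named when at least 3 markers of a class were in at least 25% of its cells and 4-fold above other clusters with 10 CPM added and its top 10 genes did not favour another class; microglia-like clusters had the 16 microglial markers in at least 80% of cells on average. These thresholds were set with the data known, and rebuilt names may differ from the study's.

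UMIs were summed per class and library. CPM intervals are exact Poisson, shares Clopper-Pearson and ratios exact conditional binomial, at 95%, and cover counting error only. With 1 library per genotype nothing was tested, and genes were counted at 25% higher or 20% lower (genotype) or 2-fold in both libraries (class). Thinning drew 3000 UMIs per cell. The 5 genes, the pathway and marker lists and the alternatives were chosen with earlier results of these data known. Named genes are the 5, and of each pathway group those counted, fixed key subunits and up to 3 with the largest microglia-like level; the 3 most correlated genes were named for each of the 5. Noxo1, Nox1, Syk, Tiam1, Vav2 and the genes of cells with at least 3 Cybb UMIs were named after their values were seen. The calculations were tested on simulated counts. Python 3.11.15, scipy 1.17.1, R 4.3.3 and edgeR 4.0.16 (TMM factors only) were used. Promoter windows are RefSeq's. Some results are not reported here.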

Additional observations from a re-analysis of the deposited data

Results flagged for a closer look

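The barcodes left out by the filter, which no comparison uses, also held UMIs of all 5 genes. There were 263 such barcodes with 486136 UMIs in fl/fl and 306 with 531538 UMIs in cKO, where a count of 0 would allow 6.17 and 5.64 CPM. In fl/fl Cybb was at 177 CPM, Cyba at 841 CPM, Ncf1 at 160.4 CPM, Ncf4 at 59.7 CPM and Rac2 at 181 CPM. In cKO Cybb was at 95.9 CPM, Cyba at 704 CPM, Ncf1 at 124 CPM, Ncf4 at 45.2 CPM and Rac2 at 139 CPM. Apart from Cybb in fl/fl, each value lay below that of microglia-like cells of its library with intervals that do not meet.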

How the results depend on the processing

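In each of 15 alternatives none of the 5 genes was 25% higher or 20% lower in cKO in microglia-like cells, and in each of 14 alternatives 3 passed 2-fold in neutrophil-like cells. The log2 genotype ratio in microglia-like cells ran from 0.11 to 0.21 for Cybb, 0.04 to 0.12 for Cyba, 0.09 to 0.13 for Ncf1, -0.11 to 0.01 for Ncf4 and -0.06 to 0.03 for Rac2. In monocyte-like cells 2 genes instead of 1 passed 2-fold with the mean of per-cell CPM, resolution 1.5, the highest doublet scores removed and marker-free cells. In MHC class II-high cells 1 instead of 0 passed with the mean of per-cell CPM, thinned sums, the stricter filter (at least 1000 genes, at most 5% mitochondrial), the looser filter (at least 200, at most 20%), resolution 0.4 and clustering with the oxidase genes. Under both other filters and resolution 0.4 no monocyte-like cluster was named, so it has no value there. The log2 genotype ratio of Cybb in MHC class II-high cells was -0.20 (-0.83 to 0.44) in marker-free cells. The 8 genes higher in cells with at least 3 Cybb UMIs became 5 without cells holding monocyte marker UMIs (4 of the 8 shared), 2 from at least 2 Cybb UMIs and 6 with reweighted clusters (without Ch25h and Malt1), and the 1 lower gene, Sox4, was replaced by another in the first and became 0 in the second; these settings were chosen after seeing the data, and the cause was not tested. No paired analysis was possible because there was 1 library per genotype.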

Other observations

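Mpo encodes myeloperoxidase, which uses the hydrogen peroxide formed downstream of the oxidase, and it belongs to neutrophil precursors. It stood at 326 CPM in fl/fl neutrophil-like cells against 7.61 CPM in cKO, but 251 of its 317 UMIs in fl/fl came from 1 cell and 312 from 2 cells. Mpo UMIs were present in 4 of 79 fl/fl and 1 of 91 cKO neutrophil-like cells.

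Cybb is X-linked, so the sex of the animals can bear on it. Among microglia-like cells 81.3% in fl/fl and 77.4% in cKO held UMIs of Y-linked genes without Xist, and Xist alone in 1 and 0 cells. Within the Y-linked cells Cybb was at 189 and 212 CPM. In the 465 fl/fl and 453 cKO cells with UMIs of neither, it was at 162 CPM (150 to 175) and 158 CPM (146 to 171).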
